A study of Triticum aestivum with 14 samples.

Results

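Wheat genes for lipoxygenases and for the early enzymes of jasmonate synthesis were followed across whole florets and floral organs. They were the genes whose description or name in the deposited table contains lipoxygenase, allene oxide or 12-oxophytodienoate. The rule found 29 genes of 100591 in the table. By their KEGG orthology assignments in the same table, 16 encode 9-lipoxygenases (K15718), 12 encode 13-lipoxygenases (K00454) and 1 encodes an allene oxide cyclase (K10525). No allene oxide synthase and no 12-oxophytodienoate reductase was found by that text (0 genes each). In the same table, all 12 genes assigned to allene oxide synthase (K01723) and 45 of the 46 assigned to 12-oxophytodienoate reductase (K05894) carry no description, and the remaining gene is described in other words. Genes of those steps were taken from their orthology assignments instead and are described after the 29.

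The samples were central spikelets of wheat (Triticum aestivum), untreated and taken 21 days after the terminal spikelet stage. There were 14 RNA-seq libraries in 5 groups: F5 (n = 3) and F1 (n = 3), taken as the floret samples, and Anther (n = 3), Ovary (n = 3) and Lemma (n = 2, replicates 1 and 3). All carry the label N50, which is not explained. The stated design sets fertile against abortive florets and asks about organs of the fertile floret, but whether F5 or F1 was the fertile one is not stated. Replicates are not labelled as separate plants, so each p-value measures only the spread between these samples.

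Lipoxygenases add oxygen to polyunsaturated fatty acids and are classed by the carbon that they oxidise. In plants the 13-lipoxygenases of the plastid make the hydroperoxide from which allene oxide synthase, allene oxide cyclase, 12-oxophytodienoate reductase and peroxisomal beta-oxidation form jasmonic acid. The 9-lipoxygenases feed other oxylipins, many of them known from defence and from germinating seed, so the 16 genes of that class do not belong to the jasmonate branch. Jasmonate is known in Arabidopsis for its part in stamen development and pollen release.

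Total counts ran from 100415586 to 105526441 in F5 libraries and from 75016595 to 79847721 in F1 libraries, and from 76441070 to 103924952 over the organ libraries. F1 replicate 1 correlated with the other F1 libraries at 0.904 and 0.914 over genes (log2 CPM), against 0.945 to 0.976 for the other pairs within a group. Genes enriched in the lemma took 36.8 to 39.9% of counts in F5 libraries and 20.9 to 33.1% in F1 libraries. Genes enriched in the ovary took 4.05 to 4.70% in F5 and 7.33 to 9.55% in F1, and genes enriched in the anther 4.99 to 5.27% in F5 and 5.73 to 8.68% in F1. Green tissue markers (115 genes) summed to 42600 to 47500 FPKM in F5, 16800 to 39400 FPKM in F1, 712 to 994 FPKM in Anther, 524 to 591 FPKM in Ovary and 52500 to 53500 FPKM in Lemma. The 2 anther and pollen markers summed to 7.94 to 20.5 FPKM in Anther and at most 0.123 FPKM in any other library, and no gene matched the ovary and ovule list (0 genes). FPKM, the deposited unit used below for levels, is the fragment count scaled to gene length and to library size.

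Of 15 tested 9-lipoxygenase genes, 10 were called higher in F5 than in F1, against 10.4% of all genes tested. That count fell to 5 or 6 when F1 replicate 2 or any F5 library was left out. Of 12 tested 13-lipoxygenase genes, 2 were called higher in F5. In both classes some of the genes called higher had enough counts to be tested only through F5. They are named below, and the share of all genes is no measure for them. The summed level of the 16 9-lipoxygenase genes was 210, 168 and 149 FPKM in F5 libraries and 58.9, 92.6 and 141 FPKM in F1 libraries. It was 18.5 to 22.2 FPKM in Anther, 189 to 217 FPKM in Ovary and 21.3 and 36.6 FPKM in Lemma. The 12 13-lipoxygenase genes summed to 19.2 to 21.0 FPKM in F5, 13.8 to 19.5 FPKM in F1, 18.6 to 19.6 FPKM in Anther, 5.23 to 13.7 FPKM in Ovary and 35.3 to 36.0 FPKM in Lemma. By group means the 9-lipoxygenase total was highest in Ovary (200 FPKM) and next in F5 (176 FPKM), with overlapping libraries, and the 13-lipoxygenase total was highest in Lemma.

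**Figure D1:**
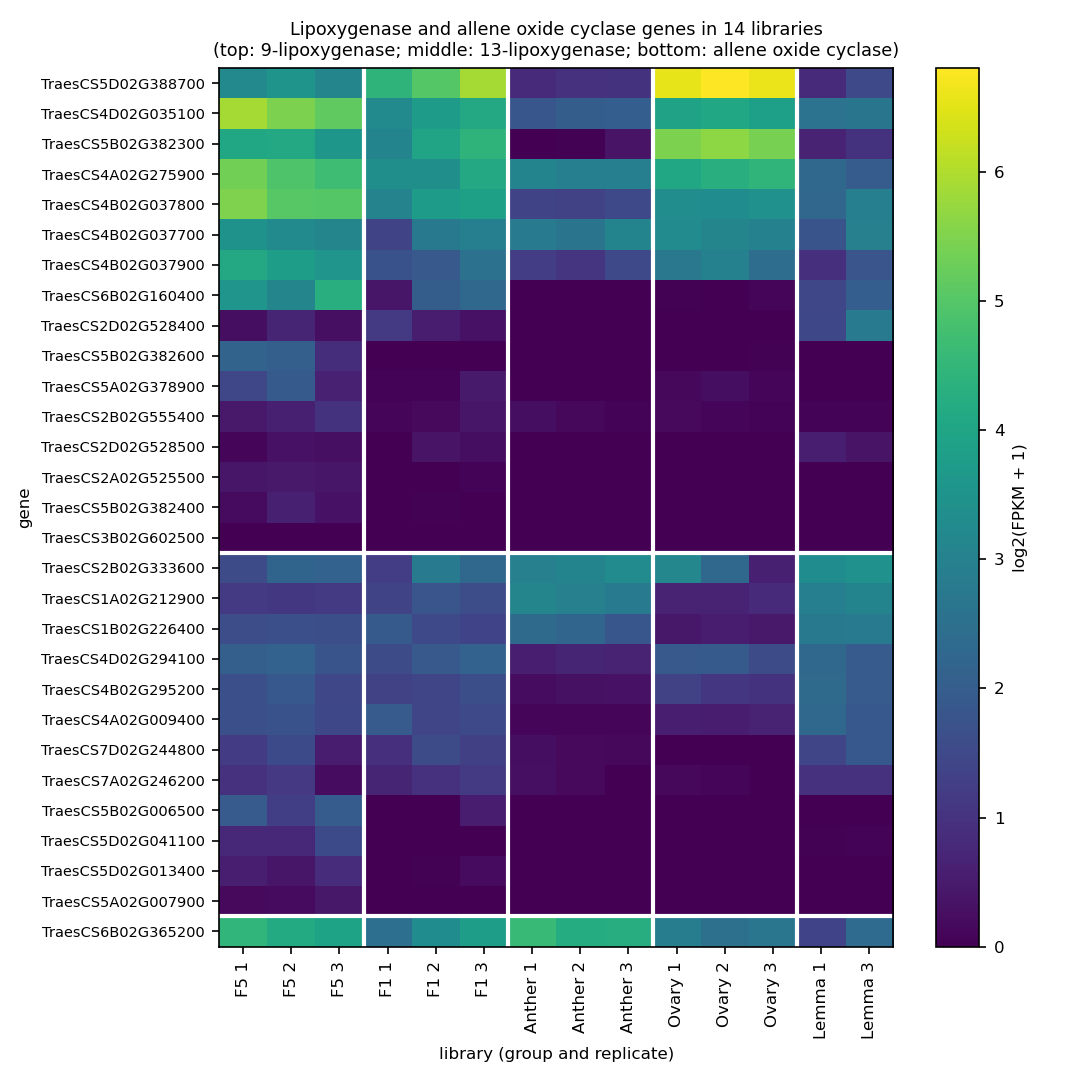
Level of the 29 genes (rows) in each of the 14 libraries (columns, named by group and replicate), as log2(FPKM + 1), with the 16 9-lipoxygenase genes on top, the 12 13-lipoxygenase genes below them and the allene oxide cyclase gene in the last row. Several 9-lipoxygenase genes are brightest in the 3 F5 libraries, 2 are brightest in the 3 Ovary libraries, and 8 of the 12 13-lipoxygenase genes have their highest mean in Lemma.

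Which genes differed between F5 and F1 was tested on the raw counts with edgeR. Calls needed a change of at least 2-fold and an adjusted p under 0.05 (Benjamini-Hochberg, over all genes tested). Of the 29 genes, 28 had enough counts to be tested, and 13 of them were called higher in F5, against 10.4% of all 70221 genes tested. Only TraesCS5D02G388700 was called lower in F5 (1 gene), against 13.7% of all genes. The median log2 fold change, F5 over F1, was 1.48 over the 28 genes, also with the gene that had no F1 counts set to its bound, and -0.05 over all genes. On FPKM with limma, which tested 20 of the genes, it was 0.68 on log2(FPKM + 0.1) and 0.56 on log2(FPKM + 1), and with edgeR scaled by library totals alone it was 1.15. Every F5 library was above every F1 library in 16 genes, against 16.9% of all genes tested, and below in 2 genes, against 38.2%. Some of the genes tested passed the filter on low counts only through their F5 counts, and so could hardly be called lower. Among them, TraesCS2A02G525500, TraesCS5A02G007900, TraesCS5B02G382400, TraesCS5B02G382600 and TraesCS5D02G041100 were called higher. They had 15, 5, 9, 4 and 0 counts over all F1 libraries together. Their calls are in the 13, and their values are in the median of 1.48 and in the 16 genes without overlap. TraesCS5B02G006500 and TraesCS5D02G013400, not called, had 129 and 51 counts over all F1 libraries. They also passed only through F5 and are in that median and in the 16. For all these genes, neither the shares nor the median of all genes is a measure. Among the 18 genes with a mean of at least 1 FPKM over the 6 floret libraries, 7 were called higher and 1 lower, against 11.8% and 11.5% of the 48053 genes at that level. Among the 11 genes under 1 FPKM, 10 were tested and 6 called higher, against 7.39% of genes at that level. TraesCS5B02G382600 is among the 7, and TraesCS2A02G525500, TraesCS5A02G007900, TraesCS5B02G382400 and TraesCS5D02G041100 are among the 6, so these comparisons are not a test of them.

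The count of called genes depended on single libraries. With all 6 libraries it was 14 in both directions together, against 24.1% of all genes. It was 13 when F1 replicate 1 was left out, 9 when F1 replicate 2 was left out, and 8 when F5 replicate 1, 2 or 3 was left out. The 7 genes called whichever library was left out were TraesCS4A02G275900, TraesCS4B02G037800, TraesCS4B02G037900, TraesCS4D02G035100, TraesCS5B02G382600, TraesCS5D02G041100 and TraesCS5D02G388700. In bulk samples such as these, fewer cells of a type and less RNA per cell cannot be told apart.

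Of the 15 9-lipoxygenase genes tested, 10 were called higher in F5 (10.4% of all genes) and 1 lower (13.7%), with a median log2 fold change of 2.14. The 10 and the median include TraesCS2A02G525500, TraesCS5B02G382400 and TraesCS5B02G382600, which passed the filter on low counts only through F5. The values of all genes are no measure for them. By limma on log2(FPKM + 1), which tested 10 of them, 7 were higher and 1 lower. By mean FPKM the leading genes in F5 among the 10 called higher were 4 genes of the group 4 chromosomes. TraesCS4D02G035100 (chromosome 4D, 15871106 to 15877068, minus strand, on the table's own build, which is not given) had 58.1, 42.8 and 34.6 FPKM in F5 libraries, against 8.59, 12.5 and 16.1 FPKM in F1 libraries. The lowest F5 library was above the highest F1 library, and the log2 fold change was 2.14 (SE 0.275, adjusted p = 0.00241). In the organs this gene averaged 2.89 ± 0.329 FPKM in Anther (SD, n = 3), 14.3 ± 1.14 FPKM in Ovary (SD, n = 3) and 5.14 ± 0.197 FPKM in Lemma (SD, n = 2), all below F5.

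TraesCS4B02G037800, named Lpx-B3 in the table (chromosome 4B, 27395288 to 27401006, minus strand), had 44.3, 31.8 and 31.0 FPKM in F5 libraries, against 7.18, 12.4 and 13.5 FPKM in F1 libraries. The groups did not overlap, and the log2 fold change was 1.97 (SE 0.264, adjusted p = 0.00278). Its neighbour TraesCS4B02G037900 (chromosome 4B, 27518619 to 27523533, minus strand) had 16.2, 12.9 and 10.7 FPKM in F5 libraries, against 2.26, 2.74 and 4.80 FPKM in F1 libraries. Here too every F5 library was above every F1 library, with a log2 fold change of 2.30 (SE 0.290, adjusted p = 0.00228). TraesCS4A02G275900, named Lpx-A3 (chromosome 4A, 584694118 to 584699911, minus strand), had 39.9, 29.3 and 24.8 FPKM in F5 libraries, against 9.46, 9.55 and 16.3 FPKM in F1 libraries. Its log2 fold change was 1.69 (SE 0.263, adjusted p = 0.00456), again without overlap.

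These 4 genes were less abundant in the lemma than in the F5 florets. The share of counts from lemma-enriched genes was larger in F5 than in F1. In Lemma libraries Lpx-B3 had 3.76 and 6.68 FPKM, Lpx-A3 had 3.85 and 2.97 FPKM, and TraesCS4B02G037900 had 0.898 and 2.50 FPKM, all below every F5 library and every F1 library except that the higher Lemma value of TraesCS4B02G037900 was above the lowest F1 value. Whether the makeup of the florets had a part in the difference between F5 and F1 was not tested.

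TraesCS6B02G160400 (chromosome 6B, 164357412 to 164360569, plus strand), a further 9-lipoxygenase gene, had 10.7, 7.55 and 18.7 FPKM in F5 libraries, against 0.330, 2.99 and 3.89 FPKM in F1 libraries. The groups did not overlap, and the log2 fold change was 2.66 (SE 0.806, adjusted p = 0.0415). This call was lost when F1 replicate 2, F1 replicate 3 or any F5 library was left out, at log2 fold changes of 2.21 to 3.14. In the organs the gene had 1.71 and 3.08 FPKM in Lemma, no counts in any Anther library (0 counts) and at most 0.0584 FPKM in Ovary.

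The exception was TraesCS5D02G388700 (chromosome 5D, 458094426 to 458098176, minus strand), the most abundant of all 29 genes in F1 and in Ovary. It had 8.30, 10.6 and 7.53 FPKM in F5 libraries, against 20.6, 31.0 and 58.0 FPKM in F1 libraries. Every F5 library was below every F1 library, and the log2 fold change was -1.77 (SE 0.350, adjusted p = 0.0102). In Ovary libraries it reached 92.5, 111 and 95.8 FPKM, against 0.769 to 1.01 FPKM in Anther and 0.751 and 1.83 FPKM in Lemma. Ovary-enriched genes as a whole took a smaller share of counts in F5 than in F1, and their part in this difference was not tested. TraesCS5B02G382300, the other 9-lipoxygenase gene with its highest level in Ovary, had 15.8, 16.4 and 11.1 FPKM in F5 libraries, against 7.47, 14.6 and 20.7 FPKM in F1 libraries. These overlapped, at a log2 fold change of 0.30 (SE 0.335, adjusted p = 0.527).

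**Figure D2:**
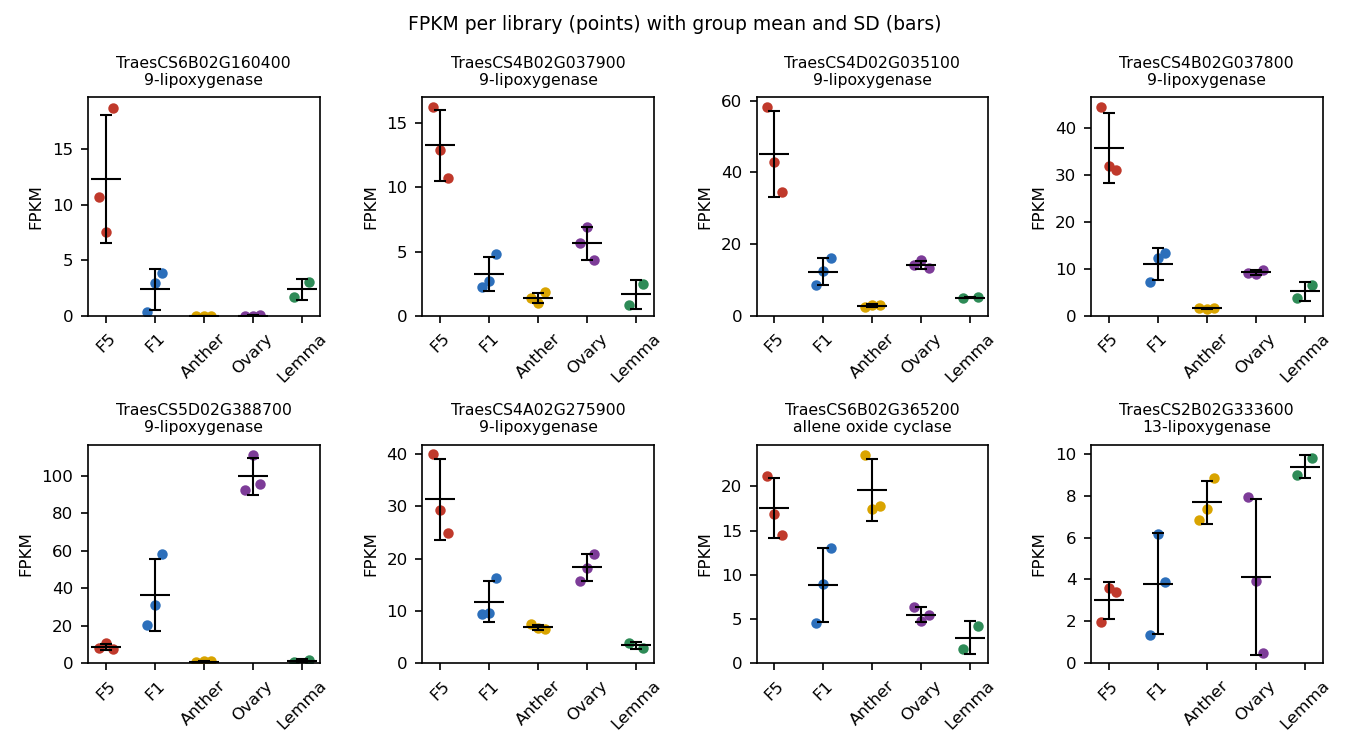
FPKM of 8 genes in every library (points) with the mean and SD of each group (bars), in the order F5, F1, Anther, Ovary and Lemma on the horizontal axis. In the panels of TraesCS4D02G035100, TraesCS4B02G037800, TraesCS4B02G037900, TraesCS4A02G275900 and TraesCS6B02G160400 all 3 F5 points are above all other points, and in that of TraesCS5D02G388700 the 3 Ovary points, from 92.5 to 111 FPKM, are above all others.

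A second set of genes was scarce everywhere but in F5. TraesCS5B02G382600 (9-lipoxygenase) had 3.52, 3.18 and 0.845 FPKM in F5 libraries, against at most 0.0120 FPKM in F1 libraries, where 4 counts were found in all 3 together. Its log2 fold change was 9.16 (SE 1.03, adjusted p = 0.00155). TraesCS5D02G041100 (13-lipoxygenase) had 0.684, 0.720 and 1.89 FPKM in F5 libraries and no counts in F1 libraries (0 counts). With 3 counts set for the F1 group, it was at least 397-fold higher in F5 (adjusted p = 0.00260), a bound that covers counting error only. TraesCS5A02G378900 had 1.75, 2.82 and 0.543 FPKM in F5 libraries, against 0.0458, 0.0435 and 0.404 FPKM in F1 libraries (log2 fold change 3.65, SE 1.00, adjusted p = 0.0299). That call was lost when F1 replicate 1 or 2 or F5 replicate 1 or 2 was left out, and with a replicate block.

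Another 4 low genes were called higher in F5 while staying under 1 FPKM in every library. They were the 9-lipoxygenase genes TraesCS2A02G525500 (0.334 to 0.377 FPKM in F5 and at most 0.0509 FPKM in F1), TraesCS2B02G555400 (0.392 to 0.993 FPKM in F5 and 0.0660 to 0.339 FPKM in F1) and TraesCS5B02G382400 (0.154 to 0.513 FPKM in F5 and at most 0.0322 FPKM in F1), and the 13-lipoxygenase gene TraesCS5A02G007900 (0.131 to 0.363 FPKM in F5 and at most 0.0159 FPKM in F1). At such levels the calls were less firm: each of these 4, like that of TraesCS5A02G378900, was lost when at least 1 library was left out. TraesCS2A02G525500 and TraesCS2B02G555400 also overlap genes on the opposite strand over 1999 and 1760 bases, and since the strand setting of the counting is not given, their reads cannot be told apart from those of the partner genes.

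Of the 12 13-lipoxygenase genes, 2 were called higher in F5, the scarce TraesCS5D02G041100 and TraesCS5A02G007900, and the median log2 fold change of the class was 0.36. Both called genes passed the filter on low counts only through F5, and so could hardly have been called lower. None was called lower in F5 by edgeR (0 genes). At an unadjusted p under 0.05, 5 were higher and 1 was lower, and by the DESeq2 Wald test 3 were called higher and 0 lower, and by limma 1 and 0. The 4 genes of this class with their highest mean in F5 lie on chromosomes 5A, 5B and 5D. Besides the 2 called genes these were TraesCS5B02G006500, with 2.86, 1.40 and 2.93 FPKM in F5 libraries against 0, 0.00977 and 0.421 FPKM in F1 libraries (log2 fold change 4.38, adjusted p = 0.0511), and TraesCS5D02G013400 (3.55, adjusted p = 0.0569). In all 4 genes every F5 library was above every other library of the series. All 4 passed the filter on low counts only through F5.

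The other 8 13-lipoxygenase genes had log2 fold changes between -0.48 and 0.57, none past the threshold. TraesCS2B02G333600 (chromosome 2B, 477327980 to 477332460, plus strand), the most abundant of them, had 1.97, 3.61 and 3.42 FPKM in F5 libraries, against 1.34, 6.18 and 3.90 FPKM in F1 libraries. These overlapped (log2 fold change -0.07, SE 0.513, adjusted p = 0.928).

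The allene oxide cyclase gene TraesCS6B02G365200 (chromosome 6B, 636878180 to 636879371, plus strand), whose enzyme fixes the stereochemistry of the jasmonate precursor, had 21.2, 16.9 and 14.5 FPKM in F5 libraries, against 4.57, 8.94 and 13.0 FPKM in F1 libraries. The lowest F5 library was just above the highest F1 library, and the log2 fold change was 1.27 (SE 0.343, adjusted p = 0.0284). The call was lost when any library other than F1 replicate 3 was left out, at log2 fold changes of 1.00 to 1.38, and under scaling by library totals alone (0.94).

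**Figure D3:**
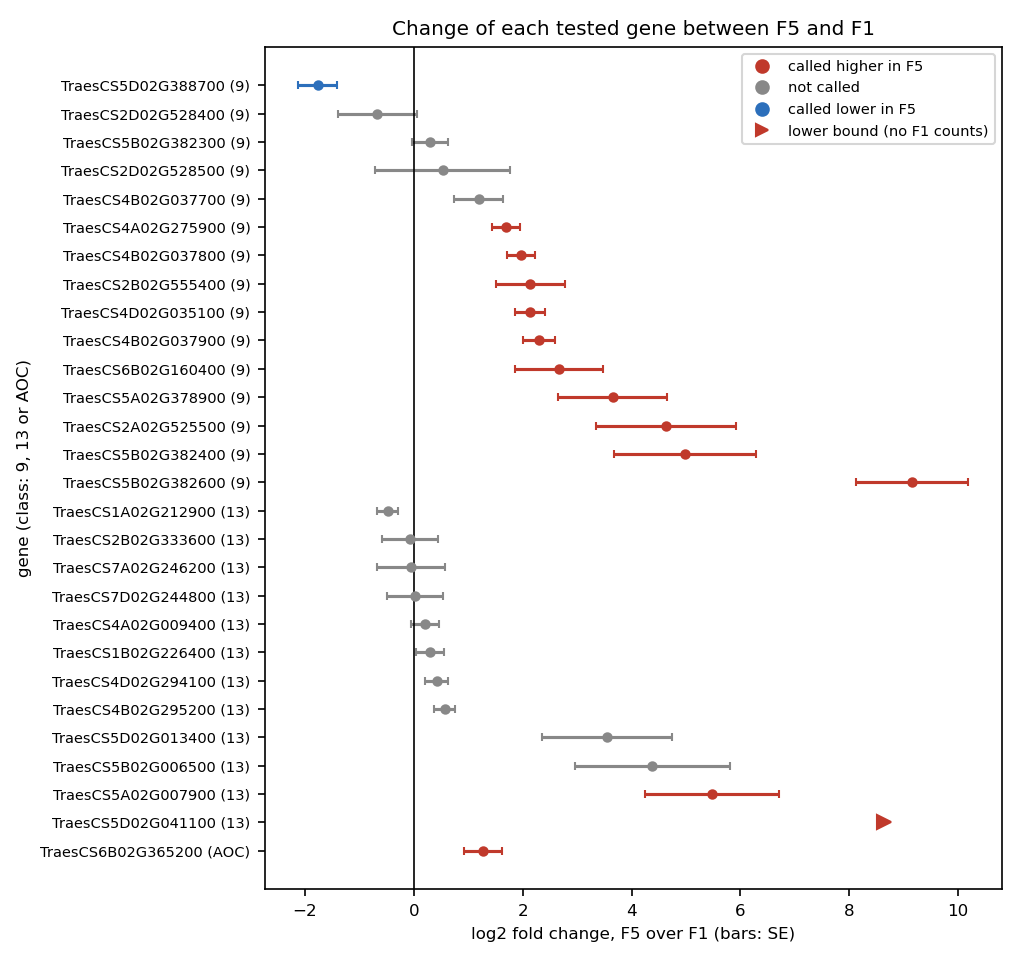
Log2 fold change of each of the 28 tested genes, F5 over F1 (horizontal axis), with its SE, from the 9-lipoxygenase genes at the top through the 13-lipoxygenase genes to the allene oxide cyclase gene (AOC) at the bottom. The 13 genes called higher in F5 and the 1 called lower, at -1.77, are coloured, and the triangle marks the bound of at least 397-fold for TraesCS5D02G041100.

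Set against the organs, many of these genes were higher in F5 than anywhere else. In 14 of the 29 genes every F5 library was above every other library of the series, against 7.46% of the 93254 genes with counts. The same held for Ovary in 2 genes (12.9% of all genes), for Lemma in 4 genes (7.59%), and for F1 (1.06%) and Anther (14.6%) in 0 genes each. By group means, F5 was highest in 16 genes (19.4% of all genes), Lemma in 10 (15.3%), Ovary in 2 (29.1%), Anther in 1 (24.7%) and F1 in 0 (11.5%). The classes divided along these lines: F5 was highest in 12 of 16 9-lipoxygenase genes, and Lemma in 8 of 12 13-lipoxygenase genes. The 12 include TraesCS3B02G602500, with 6 counts over all F5 libraries and too few to be tested. They also include TraesCS4B02G037700, whose F5 and Ovary libraries overlapped. Among the 8, the Lemma and Anther libraries of TraesCS1A02G212900 overlapped. The F5 and F1 samples are described only as florets, and which parts of the floret other than lemma, anther and ovary they held is not given.

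Among the organs, the comparison of anther with lemma asked where within a floret these genes were used. Of 21 genes tested, 1 was called higher in Anther (25.2% of all 76348 genes tested) and 12 lower (26.7%), or 13 in all (51.9%), with a median log2 fold change of -1.07, also with the genes without Anther or Lemma counts set to their bounds, against 0.02 over all genes. In the 13-lipoxygenase class 6 of 8 tested genes were lower in Anther than in Lemma. TraesCS4A02G009400 had 0.0854, 0.0713 and 0.0737 FPKM in Anther, against 3.95 and 2.64 FPKM in Lemma. The groups were far apart, at a log2 fold change of -5.63 (SE 0.252, adjusted p = 1.19e-06). TraesCS1A02G212900 and TraesCS2B02G333600 were the 2 that were not called. TraesCS1A02G212900 had 7.56, 6.78 and 6.14 FPKM in Anther, against 6.64 and 7.34 FPKM in Lemma.

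In the 9-lipoxygenase class 6 of 12 tested genes were lower in Anther than in Lemma. Of these, TraesCS2D02G528400, TraesCS2D02G528500 and TraesCS6B02G160400 passed the filter on low counts only through Lemma and could not have been called higher in Anther. They are in the total of lower genes above, and the share of all genes is no measure for them. TraesCS2D02G528400, with 1.78 and 6.07 FPKM in Lemma, had no counts in Anther (0 counts) and was at least 1350-fold lower there. TraesCS6B02G160400 was at least 831-fold lower and TraesCS2D02G528500 at least 138-fold lower in Anther, each with 3 counts set for the Anther group. Lpx-B3 had 1.61, 1.56 and 1.82 FPKM in Anther, against 3.76 and 6.68 FPKM in Lemma (log2 fold change -1.89, SE 0.227, adjusted p = 0.000190).

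The allene oxide cyclase gene was the 1 called higher in Anther. It had 23.6, 17.4 and 17.8 FPKM in Anther, against 6.38, 4.73 and 5.43 FPKM in Ovary and 1.57 and 4.19 FPKM in Lemma. No Anther library overlapped the other organs, and the log2 fold change was 2.52 over Lemma (SE 0.410, adjusted p = 0.00101) and 2.20 over Ovary (SE 0.344, adjusted p = 0.000918). The Anther level was also close to that of F5, which had 14.5 to 21.2 FPKM, without a test between them.

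In Ovary against Lemma, 4 of 21 tested genes were called higher in Ovary (20.4% of all genes) and 10 lower (22.4%), or 14 in all (42.7%). The classes differed in their counts: 7 of 8 13-lipoxygenase genes were lower in Ovary, while 4 of 12 9-lipoxygenase genes were higher and 3 lower. Those 3 (TraesCS2D02G528400, TraesCS2D02G528500 and TraesCS6B02G160400) passed the filter on low counts only through Lemma. TraesCS5A02G378900, among the 4, passed it only through Ovary. The calls of these genes could not have gone the other way. TraesCS5D02G388700 had 92.5, 111 and 95.8 FPKM in Ovary, against 0.751 and 1.83 FPKM in Lemma (log2 fold change 5.65, SE 0.427, adjusted p = 2.05e-05). TraesCS5B02G382300 had 42.9, 49.2 and 41.9 FPKM in Ovary, against 0.597 and 1.01 FPKM in Lemma (log2 fold change 5.17, SE 1.14, adjusted p = 0.00583), and this call was lost without Lemma replicate 1. The others called higher were Lpx-A3, with 15.8, 18.2 and 20.9 FPKM in Ovary against 3.85 and 2.97 FPKM in Lemma (log2 fold change 1.80, SE 0.159, adjusted p = 4.56e-05), and the scarce TraesCS5A02G378900.

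Among the 13-lipoxygenase genes, TraesCS1B02G226400 had 0.360, 0.443 and 0.388 FPKM in Ovary, against 5.71 and 6.17 FPKM in Lemma. It was lower in Ovary by a wide margin (log2 fold change -4.52, SE 0.211, adjusted p = 1.78e-06). TraesCS7D02G244800 had 0.0119, 0 and 0 FPKM in Ovary, against 1.67 and 2.64 FPKM in Lemma (log2 fold change -9.32, SE 0.815, adjusted p = 4.44e-05). TraesCS2B02G333600, the gene not called, ranged within Ovary through 7.94, 3.92 and 0.512 FPKM, a wider spread than in any other group, against 8.99 and 9.79 FPKM in Lemma.

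In Anther against Ovary, 4 genes were called higher in Anther (21.9% of all genes) and 10 lower (21.7%), or 14 in all (43.5%). All 7 9-lipoxygenase genes that passed the test were lower in Anther. Among them, TraesCS5A02G378900 passed the filter on low counts only through Ovary and could not have been called higher in Anther. TraesCS5D02G388700 had 0.769, 0.972 and 1.01 FPKM in Anther, against 92.5, 111 and 95.8 FPKM in Ovary (log2 fold change -6.38, SE 0.368, adjusted p = 6.08e-06). The 13-lipoxygenase class was divided, with 3 genes higher and 3 lower in Anther of 8 tested. TraesCS1A02G212900 had 7.56, 6.78 and 6.14 FPKM in Anther, against 0.588, 0.597 and 0.792 FPKM in Ovary (log2 fold change 3.75, SE 0.154, adjusted p = 1.78e-06). TraesCS4D02G294100 had 0.476, 0.615 and 0.563 FPKM in Anther, against 2.76, 2.80 and 1.96 FPKM in Ovary (log2 fold change -1.81, SE 0.218, adjusted p = 0.000222).

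Taking only genes called higher in an organ than in each of the other 2, the lemma held 9 of the 21 tested genes (16.8% of all genes), the ovary 4 (9.55%) and the anther 1 (14.3%). The 9 include TraesCS2D02G528400, TraesCS2D02G528500 and TraesCS6B02G160400, tested only because of their Lemma counts. The 4 include TraesCS5A02G378900, tested only because of its Ovary counts. For these genes the filter fixed the outcome, so they cannot be set against those shares. The scaling of the libraries bears on these fold changes. Scaling with trimmed means of M-values (TMM) set the median log2 fold change of all genes at 0.05 for Ovary over Lemma, against 0.71 with library totals alone, so that fitted log2 fold changes of Ovary over Lemma lie below the ratios of FPKM: a gene higher in Ovary has a smaller fitted change, and a gene lower in Ovary a larger one. TraesCS4D02G294100 averaged 2.51 FPKM in Ovary and 3.36 FPKM in Lemma and was fitted at a log2 fold change of -1.03, a call that was lost with library totals alone. The corresponding medians were -0.05 and -0.36 for F5 over F1, 0.02 and 0.29 for Anther over Lemma, and -0.03 and -0.42 for Anther over Ovary. With totals alone the share of calls that were higher moved to 26.1% from 43.2% over all genes in F5 against F1, to 67.2% from 47.7% in Ovary against Lemma and to 36.9% from 50.2% in Anther against Ovary. Among the 29 genes it moved to 18.2% from 7.69% in Anther against Lemma and to 40.0% from 28.6% in Ovary against Lemma.

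Lipoxygenase genes often lie next to each other, and neighbours differed in where they were used. Genes of either lipoxygenase orthology group within 1 Mb of each other were grouped, whether or not they carried a description. This gave 7 clusters that held a gene with a description. Clusters made only of genes without a description were not counted. On chromosome 4B, 4 genes lay within 280443 bases. Of these, Lpx-B3 and TraesCS4B02G037900 were called higher in F5, as was TraesCS4B02G038000, which has no description (7.00 ± 1.26 FPKM in F5 and 4.17 ± 0.438 FPKM in F1, SD, n = 3 each). TraesCS4B02G037700, at the other end, had 10.3, 8.41 and 7.60 FPKM in F5 libraries, against 1.65, 5.76 and 6.62 FPKM in F1 libraries (log2 fold change 1.19, adjusted p = 0.0822). In the organs it averaged 6.24 FPKM in Anther and 7.77 FPKM in Ovary, and its Lemma libraries were apart, at 2.41 and 6.84 FPKM. It was not called between organs with all libraries, but was called in Anther and in Ovary against Lemma when Lemma replicate 3 was left out.

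On chromosome 5D, TraesCS5D02G388700, the ovary gene that was lower in F5, lay beside TraesCS5D02G388800, which carries no description. That neighbour had 9.14, 9.07 and 4.49 FPKM in F5 libraries, against 0.0123, 0 and 0.790 FPKM in F1 libraries, and at most 0.263 FPKM in any organ library. It was called higher in F5 (log2 fold change 5.13, SE 1.48, adjusted p = 0.0354), so that 2 genes within 88891 bases were called in opposite directions.

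A gene highest in Ovary beside genes higher in F5 was also found on chromosomes 4D, 5A and 5B. On 4D, the lipoxygenase gene TraesCS4D02G035200, without a description, averaged 40.4 FPKM in Ovary, 30.0 FPKM in Lemma and 15.5 FPKM in F5. Its Ovary and Lemma libraries overlapped, and it lay beside TraesCS4D02G035100. On 5A, TraesCS5A02G378700, a 9-lipoxygenase gene without a description, had 3.84, 10.3 and 2.43 FPKM in F5 libraries, against 24.2, 41.7 and 48.3 FPKM in F1 libraries (log2 fold change -2.52, SE 0.546, adjusted p = 0.0135). It reached 145, 159 and 133 FPKM in Ovary. Further along, TraesCS5A02G378900 and TraesCS5A02G379000 were called higher in F5, the former with a call that depended on single libraries. On 5B, TraesCS5B02G382300 led in Ovary, and TraesCS5B02G382400 and TraesCS5B02G382600 were called higher in F5.

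Some of these values rest on reads that may be shared. TraesCS5A02G378900 and TraesCS5A02G379000 differed by at most 1.17-fold in any library after adding 0.1 FPKM, and how reads that fit both were counted is not given. TraesCS5B02G382300 overlaps TraesCS5B02G382200, annotated on the opposite strand, over 3602 bases, and reads of the pair cannot be told apart without the strand setting. TraesCS5B02G382200 averaged 2.90 FPKM in Ovary, against 44.7 FPKM for TraesCS5B02G382300.

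**Figure D4:**
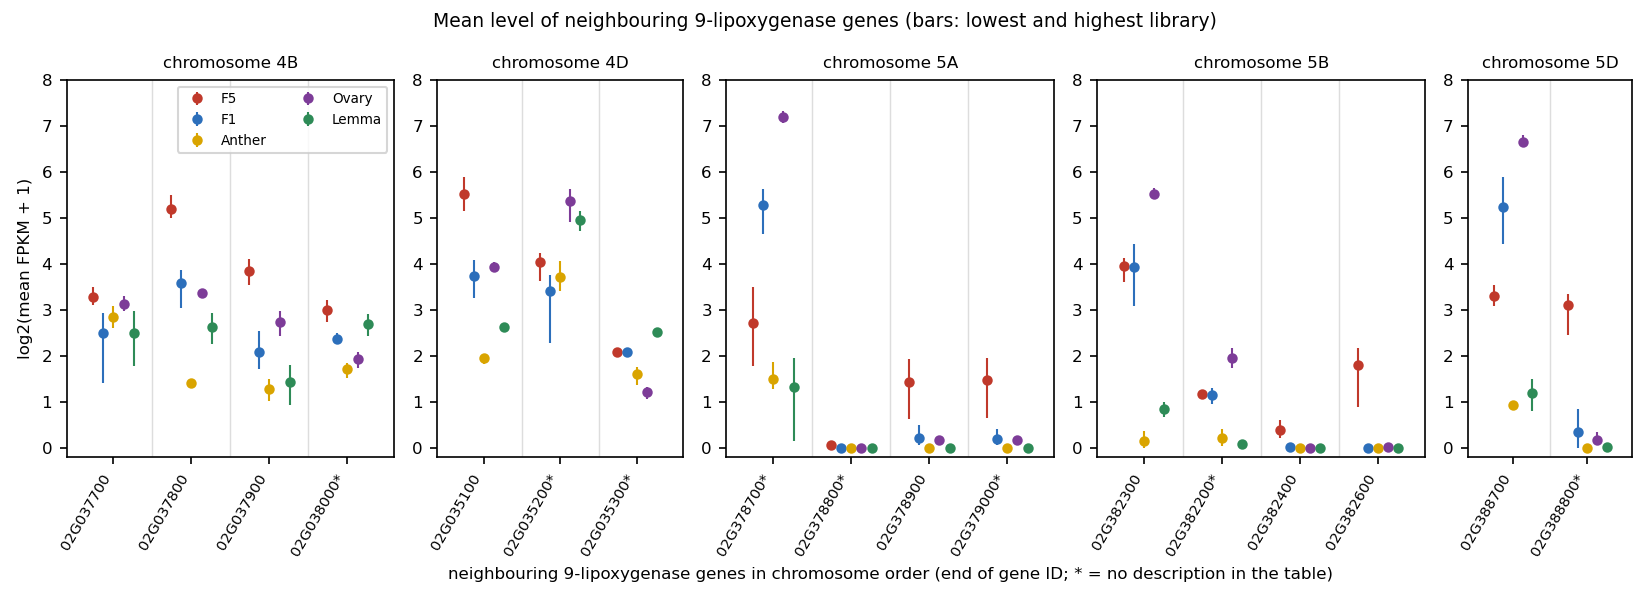
Mean level of neighbouring 9-lipoxygenase genes as log2(mean FPKM + 1), in chromosome order within 5 clusters, for F5, F1, Anther, Ovary and Lemma, with bars from the lowest to the highest library and asterisks at genes without a description. On 5A, 5B and 5D a gene is highest in Ovary (means of 146, 44.7 and 99.7 FPKM) and a neighbour is highest in F5 (means of 1.79, 2.51 and 7.57 FPKM). On 4D, TraesCS4D02G035200 is highest in Ovary (mean of 40.4 FPKM) and TraesCS4D02G035100 in F5 (mean of 45.2 FPKM).

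The same orthology groups hold further lipoxygenase genes without a description. Of 23 such 9-lipoxygenase genes, 14 were tested, and 5 were called higher (10.4% of all genes) and 1 lower (13.7%) in F5. Their median log2 fold change was 0.99. The count of higher genes was 3 when any F5 library was left out. TraesCS6A02G132200 had 16.1, 13.3 and 36.5 FPKM in F5 libraries, against 0.434, 3.36 and 3.27 FPKM in F1 libraries (log2 fold change 3.52, SE 0.793, adjusted p = 0.0155). TraesCS6A02G132500 differed from it by at most 1.09-fold in any library after adding 0.1 FPKM. Of 11 such 13-lipoxygenase genes, 7 were tested and 0 were called by edgeR, with 1 higher at an unadjusted p under 0.05, 1 called by DESeq2 and 0 by limma. Their median log2 fold change was 0.29.

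The other steps of jasmonate synthesis were then compared between F5 and F1 by orthology group, each count to be read against the 10.4% of all genes called higher and the 13.7% called lower. Of 26 tested genes for phospholipase A1 of the DAD1 type, which frees the fatty acid substrate, 9 were higher in F5. TraesCS3B02G506700 of this group had 36.4, 38.4 and 62.4 FPKM in F5 libraries, against 13.0, 12.3 and 12.2 FPKM in F1 libraries (log2 fold change 2.14, SE 0.248, adjusted p = 0.00173).

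Of 12 allene oxide synthase genes, 8 were higher in F5, with a median log2 fold change of 1.62. The count was 5 when F1 replicate 2 or F5 replicate 3 was left out, and 3 by limma on log2(FPKM + 1). TraesCS4A02G061900 had 52.0, 41.0 and 53.2 FPKM in F5 libraries, against 11.5, 17.8 and 26.3 FPKM in F1 libraries. Every F5 library was above every F1 library (log2 fold change 1.68, SE 0.285, adjusted p = 0.00603). In the organs it had 19.0 to 31.4 FPKM in Ovary, 4.10 and 12.0 FPKM in Lemma and at most 0.407 FPKM in Anther. TraesCS4B02G237600 had 6.05, 18.4 and 15.5 FPKM in F5 libraries, against 1.08, 2.15 and 3.66 FPKM in F1 libraries (log2 fold change 2.82, SE 0.543, adjusted p = 0.00928).

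Both other allene oxide cyclase genes were also called higher in F5, so that all 3 genes of this step (on 6A, 6B and 6D) were called by edgeR. By limma on log2(FPKM + 1) only 1 of the 3 was called, and without F1 replicate 2 or any F5 library edgeR called 1 of the 2 genes other than TraesCS6B02G365200. TraesCS6A02G334800 had 76.4, 59.0 and 46.3 FPKM in F5 libraries, against 13.7, 30.4 and 44.3 FPKM in F1 libraries (log2 fold change 1.32, SE 0.391, adjusted p = 0.0386). TraesCS6D02G314300 had 49.8, 42.5 and 35.4 FPKM in F5 libraries, against 9.39, 17.8 and 25.0 FPKM in F1 libraries (log2 fold change 1.57, SE 0.322, adjusted p = 0.0114). In both genes F1 replicate 1 was the lowest F1 library, as it was for TraesCS6B02G365200.

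The next enzyme reduces 12-oxophytodienoate in the peroxisome. Genes were assigned to 12-oxophytodienoate reductase by orthology alone, which does not tell which of them act at this step. Of 33 tested 12-oxophytodienoate reductase genes 8 were higher in F5, or 4 without F5 replicate 2 and 5 without F5 replicate 1 or F1 replicate 2. Among them was TraesCS4B02G356100, with 10.2, 10.1 and 7.68 FPKM in F5 libraries against 2.41, 2.31 and 2.39 FPKM in F1 libraries (log2 fold change 2.24, SE 0.154, adjusted p = 0.000401). Of 19 genes for the CoA ligase that activates the reduced precursor, 4 were higher. Among the genes of beta-oxidation, 8 of 29 acyl-CoA oxidase genes were higher and 3 lower, 5 of 15 genes for the multifunctional protein were higher (1 without F5 replicate 1 and 2 without F5 replicate 2), and 2 of 5 acetyl-CoA acyltransferase genes were higher. Of the 12 acyl-CoA oxidase genes that the table describes, 7 were higher. The acyl-CoA oxidase TraesCS7A02G141800 had 14.7, 15.4 and 7.49 FPKM in F5 libraries, against 5.23, 4.55 and 3.98 FPKM in F1 libraries (log2 fold change 1.70, SE 0.288, adjusted p = 0.00598).

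Genes that modify or perceive jasmonate followed. Of 19 tested jasmonate O-methyltransferase genes 5 were higher in F5. None of the 5 genes for the synthetase that joins jasmonate to amino acids (JAR1), of the 9 genes for the receptor COI1 or of the 3 hydroperoxide lyase genes, whose enzyme draws on the same hydroperoxide, was called by edgeR (0 genes each). At an unadjusted p under 0.05 there were 3 higher among JAR1 genes, 2 higher among COI1 genes, and 1 higher and 1 lower among lyase genes, and DESeq2 and limma called 0 in all. With single libraries left out edgeR did call some: 2 of the 3 lyase genes were higher in F5 without F1 replicate 1. Without F1 replicate 2 or F5 replicate 3, 1 JAR1 gene was higher. Of 49 tested JAZ genes, which encode repressors of the jasmonate response, 7 were higher and 3 lower, with a median log2 fold change of 0.08. TraesCS5B02G203400 of this group had 58.4, 66.2 and 64.7 FPKM in F5 libraries, against 14.2, 41.6 and 29.1 FPKM in F1 libraries (log2 fold change 1.43, SE 0.357, adjusted p = 0.0219).

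Lists matched by text were counted as well, again to be read against 10.4% of all genes called higher and 13.7% called lower. The list for perception and signalling had 13 genes higher and 4 lower of 68 tested, the phospholipase A and acyl hydrolase list 18 higher and 10 lower of 81, and 1 gene for conjugation and turnover was not called (log2 fold change 0.12). The list for proteinase inhibitors and thionins, known jasmonate-inducible products in other plants, had 3 higher and 3 lower of 25 tested, close to those shares. No gene matched the lists for fatty acid desaturases or for the alternative branch from the 13-hydroperoxide (0 genes each). Green tissue markers moved in the same direction as the early steps, with 38 of 111 tested genes higher in F5 (93 without F1 replicate 1 and 8 to 19 without any 1 of the other libraries), and their part in these counts was not tested.

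**Figure D5:**
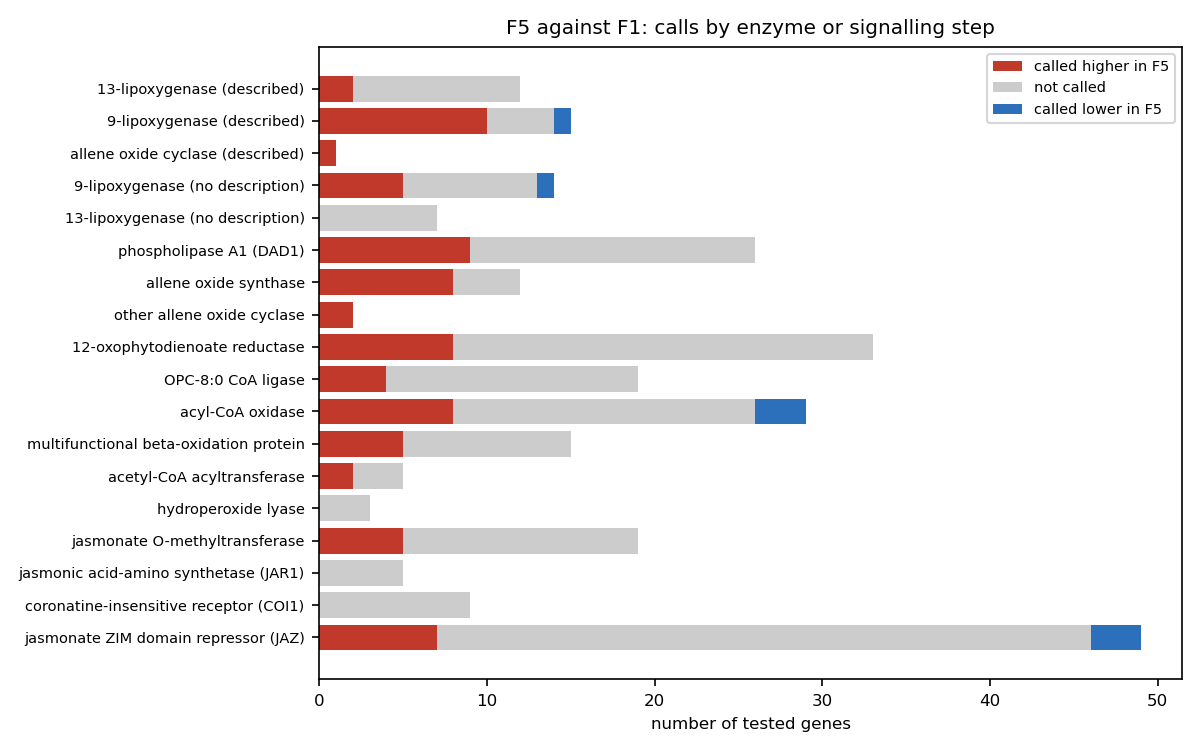
Number of genes tested at each enzyme or signalling step (bar length), divided into genes called higher in F5, genes not called and genes called lower in F5. The described 9-lipoxygenases, with 10 of 15 genes higher, allene oxide synthase, with 8 of 12, and the allene oxide cyclases, with 3 of 3, had most of their genes called. The described cyclase gene and the other 2 are drawn as separate bars. With all libraries in the fit, no gene is called for JAR1, COI1 or hydroperoxide lyase.

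The later genes were also compared between the organs, where the shares of all genes were 21.9% higher and 21.7% lower in Anther than in Ovary, 25.2% higher and 26.7% lower in Anther than in Lemma, and 22.4% lower in Ovary than in Lemma. All 5 JAR1 genes were higher in Anther than in Ovary, with a median log2 fold change of 3.05. All 5 were lower in Ovary than in Lemma by edgeR (-2.85), and 2 of them by limma on log2(FPKM + 1). All 9 COI1 genes were lower in Anther than in Ovary (median -1.29), and 6 of 9 lower in Anther than in Lemma (-1.53). Of the 9 allene oxide synthase genes tested in the organs, 6 were lower in Anther than in Ovary and 6 lower in Anther than in Lemma, in contrast to the allene oxide cyclase gene TraesCS6B02G365200. Of 34 12-oxophytodienoate reductase genes, 23 were lower in Ovary than in Lemma.

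Of 52 JAZ genes, 13 were higher and 23 lower in Anther than in Lemma (median log2 fold change -0.99), and 21 were higher and 5 lower in Anther than in Ovary. The 5 lower than in Ovary became 0 without Anther replicate 2, Anther replicate 3 or Ovary replicate 1, and 17 without Ovary replicate 3. By DESeq2 there were 8 and by limma on log2(FPKM + 1) 0. In Ovary against Lemma 16 were lower, and this count moved with single libraries and tools: it was 36 without Ovary replicate 1, 23 without Ovary replicate 3, 6 without Lemma replicate 3 and 26 by DESeq2. In Anther against Lemma the count of lower genes was 14 without Anther replicate 2 or 3 and 10 without Lemma replicate 3. The JAZ gene TraesCS2D02G507200, of those higher in F5 than in F1, had 275, 203 and 214 FPKM in Anther, against 29.5, 29.0 and 39.0 FPKM in Ovary and 32.0 and 47.9 FPKM in Lemma.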

How the data were processed

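Raw counts per gene were deposited by the authors, per the file headers, with FPKM values beside them that the authors scaled to gene length and library size. RNA with an integrity number above 7 was used, per the labels. The submitters' processing notes name Bowtie 0.12.2 and mm8, a mouse build, which cannot hold wheat genes; for wheat these sources name no aligner, build or annotation. No sequences are shown.

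F5 and F1 were fitted by themselves and the 3 organs together, in edgeR 4.0.16 (R 4.3.3) with TMM scaling, filterByExpr and robust two-sided quasi-likelihood tests. SEs are the log2 fold change divided by the square root of F. Alternatives used DESeq2 1.42.0, limma 3.58.1 on log2(FPKM + 1) or log2(FPKM + 0.1), other scalings, no filter, a replicate block, and each library left out. Fits were tested on simulated data.

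The genes and lists were chosen with earlier results of these data known. Lists by orthology group, and a corrected proteinase inhibitor list (the first text also matched methionine, with 35 of 166 genes higher and 17 lower), were added after some values had been seen, as were the fit of all 14 libraries and the scaling by library totals. Given in full were called genes with at least 5 FPKM in the higher of F5 and F1, the most abundant gene of each group and class, and up to 3 genes per list and direction. The low genes, the neighbours and the organ examples were chosen after their values were seen. Replicates of a group differed beyond counting noise (chi-square per degree of freedom 16.2 to 112), so no library was a repeat of another.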

Additional observations from a re-analysis of the deposited data

How the results depend on the processing

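No called log2 fold change of a named gene changed sign under an alternative that was run, nor did the direction of most calls among the 29 genes. Over all genes, the direction of most calls between organs turned with scaling: the share of calls that were higher was 55.6% with library totals alone and 53.2% with upper-quartile scaling in Anther against Lemma (48.6% with TMM), 67.2% and 56.0% in Ovary against Lemma (47.7%), and 36.9% and 47.2% in Anther against Ovary (50.2%). It also turned with limma in all 3 comparisons, to 51.9%, 62.9% and 39.1% on log2(FPKM + 1), and to 50.9% in Anther against Lemma without Lemma replicate 3. In Anther against Ovary it turned to 49.2% with all 14 libraries in 1 fit, 49.7% without Anther replicate 3 and 49.9% without Ovary replicate 3. With limma on log2(FPKM + 1), 9 genes were called in F5 against F1 and 8 in Anther against Lemma, and over all genes 9179 in F5 against F1, 23484 in Anther against Lemma and 20112 in Anther against Ovary, against 16958, 39589 and 33222 with edgeR. That fit also tested only genes of at least 1 FPKM in 2 libraries. Leaving out 1 library at a time, where a lone Lemma library was assumed to vary like the other organs, gave 8 to 14 called genes of the 29 in F5 against F1, 11 to 14 in Anther against Lemma, 12 to 17 in Ovary against Lemma and 13 to 15 in Anther against Ovary. Over all genes it gave 12367 to 20310, 35939 to 39845, 28557 to 32376 and 30660 to 33229. Under all 15 alternatives, 6 genes were called in F5 against F1 in the same direction: TraesCS4A02G275900, TraesCS4B02G037800, TraesCS4B02G037900, TraesCS4D02G035100, TraesCS5B02G382600 and TraesCS5D02G388700. TraesCS6B02G160400 lost its call with library totals alone (2.32). Of genes higher in F5, limma on log2(FPKM + 1) called 3 allene oxide synthase, 3 phospholipase A1 and 3 12-oxophytodienoate reductase genes, against 8, 9 and 8 with edgeR, and 1 of 3 allene oxide cyclase genes. It also called 5 acyl-CoA oxidase, 2 CoA ligase, 1 multifunctional protein, 0 acetyl-CoA acyltransferase, 2 O-methyltransferase and 4 JAZ genes, against 8, 4, 5, 2, 5 and 7, while DESeq2 called 62 green tissue markers, against 38. In the organs it called 3 9-lipoxygenase genes lower in Anther than in Lemma, against 6, and 1 13-lipoxygenase gene lower in Anther than in Ovary, against 3. The median log2 fold change of the 29 genes in Anther against Lemma was -0.66 with limma on log2(FPKM + 1) and -1.74 without Lemma replicate 1, against -1.07. The causes were not tested. Deviations of libraries with the same replicate number correlated at -0.169 to 0.0441. With so few libraries per group these values cannot exclude that replicate numbers pair the samples. With a replicate block, 14 of the 29 genes were called in F5 against F1 (12 shared with the fit without it), 13 in Anther against Lemma, 13 in Ovary against Lemma and 15 in Anther against Ovary, and TraesCS6B02G365200 was no longer called in F5 against F1 (1.35). At these depths counting error limits only the scarce genes, such as TraesCS5A02G007900 with 5 counts in the F1 libraries together.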
